A study of Mus musculus with 55 samples.

Results

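The genes described here encode the subunits of the oxidative phosphorylation complexes, together with a few assembly factors that share their names. They were chosen by symbol alone (Nduf, Sdha to Sdhd, Uqcr, Cox4 to Cox8 and Atp5) among the probe sets that name a single gene, and each gene was represented by its brightest probe set. This gave 84 of the 12393 genes on the Affymetrix Mouse Genome 430A 2.0 array. Of these, 33 encode subunits of complex I, 5 complex I assembly factors, 4 complex II, 8 complex III, 10 the ubiquitous part of complex IV, 6 tissue isoforms of complex IV subunits and 17 complex V, and Cox7a2l encodes a supercomplex factor.

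RNA came from the optic nerve head (ONH) of female C57Bl/6 mice that were 6 to 8 weeks old at surgery. The left optic nerve was crushed for 10 s at 1 mm behind the globe, and the crushed ONH was collected 1 day or 3 days, 1 or 3 weeks, or 3 months later. The right, unoperated ONH of the same animals was the contralateral control, and naïve mice had no surgery on either eye. Each of the 11 conditions had 5 arrays, each array held a pool of 2 ONHs, and the left and right eyes of 2 mice made a pair of arrays. The labels number the arrays of each group, and a crushed and a contralateral array of the same number and time were taken as a pair. The 10 arrays of 3 months were a second batch with no naïve samples. Groups were therefore compared only within a batch, and ranges over the arrays of both batches are descriptions.

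Oxidative phosphorylation takes place at the inner membrane of the mitochondrion. Complex I oxidises NADH and complex II oxidises succinate, both pass electrons through ubiquinone to complex III, and cytochrome c carries them to complex IV, which reduces oxygen. The proton gradient built by complexes I, III and IV drives complex V, the ATP synthase. Most of the subunits are encoded in the nucleus, and most of those are measured here. Others, among them the catalytic core of complex IV and part of complex I, are encoded in mitochondrial DNA and were not analysed here. The unmyelinated axons of the ONH are known for their dense mitochondria.

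Promoter windows of 250 bases before the RefSeq start to 50 bases after it (GRCm38.p6) were found for 70 of the 84 genes. Nuclear respiratory factor 1 (NRF-1), GABP, the oestrogen-related receptors and YY1 are known regulators of genes for respiratory subunits, and their motifs were searched on both strands. The NRF-1 motif (GCGCA, any base, then GCGC) was present in 15 of the 70 windows (21.4%), against 4.78% of the windows of 27025 genes. The GABP motif CCGGAAG was present in 17 (24.3%, against 9.12%), the ERR motif AAGGTCA in 7 (10%, against 4.66%), and the YY1 motif AAGATGGCG in 5 (7.14%, against 1.49%). CACGTG was present in 6 windows (8.57%, against 7.24%) and TATAAA in 7 (10%, against 14.2%). In none of the 70 windows did matches of different motifs share bases. The median GC content was 58.8% in the 70 windows and 52.7% over all genes, and its part in the shares of GC-rich motifs was not tested.

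Of these windows, 5 are printed without the part after the start, to set the letters beside the values that follow. They were picked after the values had been seen. Sdha was lower at 3 successive times, Ndufaf4 was higher at 1 day, and Cox6a1, Cox7a1 and Cox7a2 are partners of one another or of an isoform that moved. NRF-1 and GABP matches are in capitals.
Sdha (chr13:74350241-74350490, minus strand): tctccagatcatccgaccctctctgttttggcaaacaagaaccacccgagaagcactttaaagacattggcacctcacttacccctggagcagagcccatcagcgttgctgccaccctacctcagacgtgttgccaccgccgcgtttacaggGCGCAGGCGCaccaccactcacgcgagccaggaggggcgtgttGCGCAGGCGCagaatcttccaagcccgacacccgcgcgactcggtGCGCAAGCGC
Ndufaf4 (chr4:24897833-24898082, plus strand): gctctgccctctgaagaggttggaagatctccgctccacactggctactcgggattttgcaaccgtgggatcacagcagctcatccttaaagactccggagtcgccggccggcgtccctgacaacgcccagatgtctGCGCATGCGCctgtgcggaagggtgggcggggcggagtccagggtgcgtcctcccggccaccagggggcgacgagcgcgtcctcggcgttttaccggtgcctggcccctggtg
Cox6a1 (chr5:115348959-115349208, minus strand): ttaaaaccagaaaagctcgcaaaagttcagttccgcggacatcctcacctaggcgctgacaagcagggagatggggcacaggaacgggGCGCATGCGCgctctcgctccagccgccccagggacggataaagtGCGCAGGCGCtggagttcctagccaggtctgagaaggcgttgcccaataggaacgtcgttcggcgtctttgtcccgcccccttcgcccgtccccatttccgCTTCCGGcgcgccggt
Cox7a1 (chr7:30183921-30184170, plus strand): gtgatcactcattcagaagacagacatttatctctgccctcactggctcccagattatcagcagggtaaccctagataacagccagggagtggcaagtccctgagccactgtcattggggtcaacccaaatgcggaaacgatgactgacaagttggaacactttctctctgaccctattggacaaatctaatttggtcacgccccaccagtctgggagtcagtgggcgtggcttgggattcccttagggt
Cox7a2 (chr9:79759854-79760103, minus strand): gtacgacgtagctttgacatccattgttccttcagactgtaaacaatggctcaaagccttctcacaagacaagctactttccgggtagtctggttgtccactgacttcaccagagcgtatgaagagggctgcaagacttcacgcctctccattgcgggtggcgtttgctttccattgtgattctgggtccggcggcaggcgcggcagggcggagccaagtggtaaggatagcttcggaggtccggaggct
Sdha had 3 NRF-1 matches, whose first bases lay 98, 55 and 10 bases before the start. Ndufaf4 had 1, at 113 bases. Cox6a1 had 2, at 162 and 117 bases, and 1 GABP match at 16 bases. The letters of all 6 motifs were absent from the windows of Cox7a1 and Cox7a2. A match is a run of letters and was not tested for binding.

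Most of these genes were bright on the array. The mean intensity over all 55 arrays was at least 2000 for 72 of the 84 genes, with a median of 4910 and a range of 21.49 (Cox8c) to 10890 (Cox7a2). Cox8c, a testis isoform, was too dim to be tested at any time, and Ndufb1 and Cox8b were too dim at 3 months, which left 83 genes at the 4 earlier times and 81 at 3 months. The 5 naïve arrays differed little from each other, with a median SD of 0.09 on the log2 scale over the 72 bright genes, against 0.133 over all 5457 probe sets of that brightness. In the contralateral groups the same median SD lay between 0.057 and 0.177, against 0.067 to 0.188. The mean log2 intensity over 70 bright subunits outside the tissue isoforms was 12.24 to 12.56 on 54 arrays, and 12.01 on the contralateral array of pair 5 at 3 months.

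Crushed ONHs differed little from contralateral ONHs in the size of these transcripts' changes, although many changes passed the paired test. A change passed the test at a Benjamini-Hochberg adjusted p under 0.05 over all probe sets tested. At 1 day 16 genes were higher in crushed ONHs and 17 lower, of 83 tested; over all 19313 probe sets tested, 25.8% were higher and 28% lower. At 3 days 10 were higher and 7 lower (all probe sets 25.2% and 15.2%). At 1 week 2 were higher and 26 lower (23% and 19.2%), and at 3 weeks 1 was higher and 11 lower (10.4% and 12.1%). Among probe sets with a mean intensity of at least 2000, 25.3% were higher and 34.4% lower at 1 day, and 27% and 17.7% at 3 days. These shares were 20.3% and 24.4% at 1 week, and 8.39% and 17.7% at 3 weeks. No gene passed at 3 months, where 0.223% of 18823 probe sets were higher and 0.377% lower. Before adjustment, 3 genes were higher and 2 lower at a limma p under 0.05 (6.17% of 81 genes, against 14.1% of all probe sets), and the smallest adjusted p was 0.14.

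The changes were small. At 1 day 79.5% of the 83 genes were within 1.25-fold of the contralateral level, against 45.3% of all probe sets tested and 59.9% of those with a mean intensity of at least 2000. The share was 92.8% at 3 days (57.2% and 73.4%), 91.6% at 1 week (55.3% and 72.3%), 96.4% at 3 weeks (69.2% and 83.4%) and 91.4% of 81 genes at 3 months (67.1% and 83.7%). From 1 day to 3 weeks, 63 of the 83 genes (75.9%) were within 1.25-fold at all 4 times, against 24.3% of all probe sets. In all, 31 genes (37.3%, against 25.1% of all probe sets) passed at none of the 4 times, 25 passed at 1 time, 17 at 2, 9 at 3 and only Cox4i2 at all 4. A change of at least 2-fold that passed was seen for 2 genes at 1 day (Ndufb1 and Cox7a1) and none at 3 days. It was seen for 2 at 1 week (Cox4i2 and Cox6a2), 1 at 3 weeks (Cox6a2) and none at 3 months. The shares of all probe sets at these times were 14.5%, 8.79%, 9.73%, 4.11% and 0.462%. Among probe sets with a mean intensity of at least 2000 they were 6.51%, 2.22%, 3.13%, 1.32% and 0.312%. Ndufb1, Cox7a1, Cox4i2 and Cox6a2 were themselves dimmer than 2000.

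The median log2 fold change of the genes was 0.009 at 1 day, 0.046 at 3 days, -0.083 at 1 week, -0.047 at 3 weeks and -0.017 at 3 months, beside -0.033, 0.045, 0.022, -0.003 and -0.019 over all probe sets tested. The direction at 3 days depends on the scaling of the arrays. Shifting every array to a common median moved the median of all probe sets at 3 days to -0.092 and that of these genes also to -0.092, with 2 genes higher and 28 lower (16.9% and 26.1% of all probe sets), and quantile normalization gave 3 and 16 (19.2% and 23.3%). At 1 week 1 was higher and 41 lower after the shift (18.7% and 24.4%), and 2 were higher and 21 lower after quantile normalization (20.8% and 22.5%). As a share of the 83 genes, 31.3% were lower at 1 week as deposited, 49.4% after the shift and 25.3% after quantile normalization, and the median of the genes minus that of all probe sets was -0.105, -0.091 and -0.036. At 3 weeks the counts were 1 and 18 after the shift (9.37% and 14.4%) and 3 and 8 after quantile normalization (11.1% and 12.7%). Pair 3 weighed most at 1 week: without it 6 genes were higher and 15 lower, and the median was -0.037. At 1 day 10 genes were higher without pair 3 or without pair 4. At 3 days 3 were higher without pair 1 and 4 without pair 5, and 3 were lower without pair 3, and at 3 weeks 6 were lower without pair 2, 4 or 5. Of the single calls, 23 of 33 at 1 day, 5 of 17 at 3 days, 15 of 28 at 1 week and 5 of 12 at 3 weeks passed whichever pair was left out, and 2, 8, 7 and 4 were lost under at least 1 of the other scalings. Losses are given with the calls described below.

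**Figure D1:**
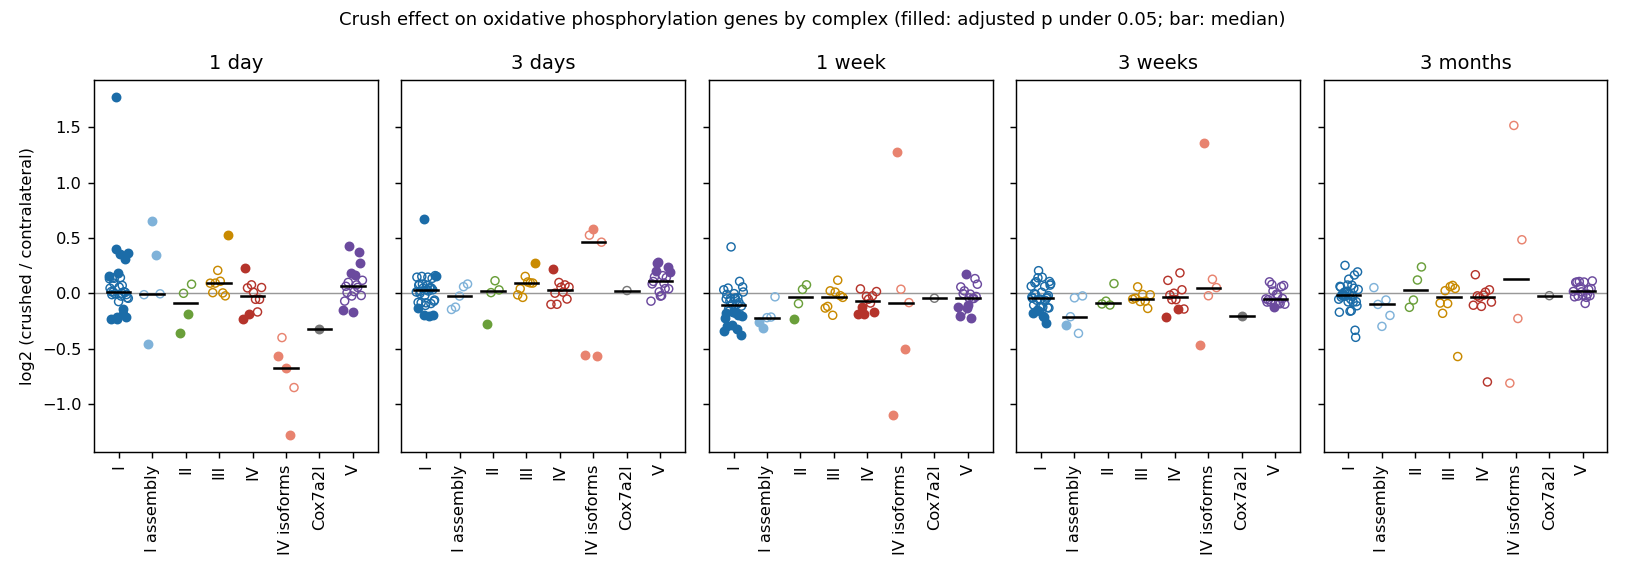
Log2 fold change of each gene, crushed over contralateral ONH (y axis), by complex and time after the crush; points are genes, filled where the adjusted p is under 0.05, and bars are medians. Most points lie near 0, and Ndufb1 at 1 day (1.78), Cox7a1 at 1 day (-1.28) and Cox6a2 at 1 and 3 weeks (1.28 and 1.36) lie far from it.

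These ONHs are mixed tissue, so that fewer cells of a type and less RNA per cell cannot be told apart. Of 12 astrocyte markers 9 were lower in crushed ONHs at 1 day and at 1 week, and none was higher. The summed intensity of the oligodendrocyte markers was 31870 to 53290 in crushed and 65250 to 74770 in contralateral ONHs at 1 day, and 30390 to 45540 in crushed and 61910 to 77300 in contralateral ONHs at 1 week. All 11 were lower in crushed ONHs at 1 day, and 10 of the 11 at 1 week. Of 14 axon and ganglion cell markers, 2 were higher and 2 lower at 1 day, and 1 was higher and 7 lower at 1 week. Of 13 microglia and macrophage markers, 5 were higher and 7 lower at 1 day, and 11 were higher and 1 lower at 1 week. The sums of 17 photoreceptor markers ranged from 1575 to 147400 between the arrays of both batches, and no marker passed the test at any time. With their level as a covariate, 13 oxidative phosphorylation genes were higher and 17 lower at 1 day, and 10 and 8 at 3 days. The counts were 2 and 26 at 1 week and 1 and 13 at 3 weeks. The shares of all probe sets in the model with this covariate were not computed. The part of these cell types in the changes below was not tested.

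Complex I, the NADH dehydrogenase, had 7 of 33 subunits higher and 6 lower at 1 day, 2 higher and 4 lower at 3 days, none higher and 12 lower at 1 week, and none higher and 5 lower at 3 weeks. Over all probe sets, 25.8% were higher and 28% lower at 1 day, and 25.2% and 15.2% at 3 days. The shares were 23% and 19.2% at 1 week and 10.4% and 12.1% at 3 weeks, for comparison with each complex below. The median log2 fold change of complex I was 0.014, 0.032, -0.101 and -0.044 at these times. At 1 week the median of the 33 genes was below 0 in all 5 pairs, from -0.265 to -0.013, and at 1 day in 2 of 5, from -0.106 to 0.175.

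Among the core subunits, which carry the flavin and the iron-sulphur clusters, Ndufs7 had intensities of 4029, 4423, 4150, 4980 and 3997 in crushed ONHs at 1 week, against 5600, 5727, 6176, 5521 and 4974 in contralateral ONHs. The groups met only at the crushed array of pair 4 and the contralateral array of pair 5, with the other arrays apart. The log2 fold change of Ndufs7 was -0.22 at 1 day, -0.20 at 3 days, -0.38 ± 0.08 (SE) at 1 week (adjusted p = 0.00048) and -0.02 at 3 weeks. Its calls at 1 day were lost without pair 1, 2 or 5 (-0.20 to -0.18) and at 3 days without pair 2, 3 or 4 (-0.17 to -0.15). Ndufs1, which receives electrons on the way to ubiquinone, was lower at 1 day (-0.18, adjusted p = 0.014, lost without pair 2 at -0.10), 1 week (-0.19, adjusted p = 0.014) and 3 weeks (-0.27, adjusted p = 0.0027). Ndufv1, which binds NADH and flavin, was lower at 1 week only (-0.20, adjusted p = 0.013, lost without pair 3 at -0.17), and the other flavoprotein subunit, Ndufv2, was higher at 1 day (0.37 ± 0.08, adjusted p = 0.00064). The core subunits moved in both directions at 1 day, when Ndufv2 was higher and Ndufs1 and Ndufs7 were lower, and Ndufs3, Ndufs8 and Ndufv1 did not pass.

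The accessory subunits, which surround the core, also split at 1 day. Ndufab1, the mitochondrial acyl carrier protein, had 4586, 4387, 5063, 4682 and 4574 in crushed ONHs at 1 day, against 3642, 3421, 3503, 3552 and 3479 in contralateral ONHs. All crushed arrays were above all contralateral arrays (0.40 ± 0.06, adjusted p = 1.9e-05). Ndufb6 (0.36, adjusted p = 4.6e-05), Ndufs4 (0.31, adjusted p = 0.0022), Ndufb2 (0.19) and Ndufa1 (0.16) were also higher, whereas Ndufa13 (-0.23, adjusted p = 0.00094), Ndufb10 (-0.23), Ndufb11 (-0.21) and Ndufc2 (-0.14) were lower. Of these calls, Ndufa1 was lost without pair 1, 3, 4 or 5 (0.14 to 0.15) and with quantile normalization, Ndufb2 without pair 3 (0.17) or 4 (0.15), and Ndufc2 without pair 2 (-0.12). Ndufb2 was higher at 1 day and lower at 1 week (-0.17, adjusted p = 0.045), the second call lost without pair 1, 3, 4 or 5 (-0.17 to -0.15) and with quantile normalization. At 1 week the lowest accessory subunits were Ndufa10 (-0.34, adjusted p = 0.013), Ndufb9 (-0.32, adjusted p = 0.00026), Ndufa5 (-0.30, adjusted p = 0.026) and Ndufb10 (-0.28, adjusted p = 0.0011), and Ndufb9 was lower at 3 days, 1 week and 3 weeks. Ndufa10 did not pass without pair 3 (-0.21), and Ndufa5 not without pair 1, 3 or 5 (-0.29 to -0.26). Ndufb9 did not pass at 3 days without pair 3 (-0.17) or at 3 weeks without pair 4 (-0.20) or 5 (-0.19). At 3 weeks Ndufa9 was lower by a smaller step (-0.15, adjusted p = 0.038), and passed neither without pair 1, 2, 3 or 5 (-0.16 to -0.12) nor with quantile normalization (-0.11).

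Ndufb1, a small membrane subunit, had the highest fold change of all 83 genes and a dim probe set. It read 129.4, 254.3, 162.3, 121.9 and 145.2 in crushed ONHs at 1 day, against 52.34, 50.94, 48.35, 42.97 and 35.95 in contralateral ONHs. The groups did not overlap, and the fold was 3.43 (log2 1.78 ± 0.24, adjusted p = 2.7e-06). At 3 days it was 0.68 (adjusted p = 0.028), a call lost without pair 1 (0.43) or 5 (0.64), with quantile normalization (0.52) and with a common median (0.54). On 18 of the 55 arrays Ndufb1 was under an intensity of 50, and its mean was 72.32.

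Assembly factors build complex I and are not part of the finished enzyme. Ndufaf4 showed the clearest change of the 5 at 1 day, with 1635, 1625, 1753, 1670 and 1572 in crushed ONHs against 1059, 1050, 995.4, 1086 and 1069 in contralateral ONHs. Every crushed array exceeded every contralateral array, by 1.57-fold on average (log2 0.65 ± 0.09, adjusted p = 5.2e-06). At 3 days the same gene gave -0.02 (adjusted p = 0.86), and the difference between the effects at 3 days and 1 day was -0.67 ± 0.13 (adjusted p = 0.0014). A second probe set of Ndufaf4, nearly as bright (a mean of 1077 against 1185), gave 1.10 at 1 day (adjusted p = 7.4e-08) and still 0.32 at 3 days (adjusted p = 0.025), so that the probe sets disagree about 3 days. Ndufaf5 was higher at 1 day (0.35, adjusted p = 0.041), but passed only with all 5 pairs or without pair 2 (0.31 to 0.37 without the others) and not with the photoreceptor covariate (0.26). Ndufaf3 was lower at 1 day (-0.46 ± 0.08, adjusted p = 0.00011) and at 1 week (-0.31, adjusted p = 0.0053), and Ndufaf1 was lower at 1 week (-0.26, lost without pair 1, 2 or 5) and 3 weeks (-0.29, lost without pair 2, 4 or 5). Ndufaf7 passed at no time.

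Complex II, succinate dehydrogenase, is also an enzyme of the tricarboxylic acid cycle. Its catalytic flavoprotein gene Sdha read 5621, 4599, 5543, 5746 and 4980 in crushed ONHs at 1 day, against 6749, 7003, 6504, 6633 and 6863 in contralateral ONHs. The groups did not overlap at 1 day, at 3 days or at 1 week. The log2 fold change was -0.35 ± 0.06 at 1 day (adjusted p = 3.1e-05), -0.27 at 3 days (adjusted p = 0.00081), -0.23 at 1 week (adjusted p = 0.0031) and -0.10 at 3 weeks (adjusted p = 0.26). None of the other 3 subunits passed after 1 day. Sdhb, the iron-sulphur subunit, gave 0.00, 0.01, -0.09 and -0.07 at the 4 times and never passed, Sdhc, a membrane anchor, was lower at 1 day only (-0.18, adjusted p = 0.023, lost without pair 2 at -0.18 or pair 5 at -0.13), and Sdhd, the other anchor, gave 0.03 to 0.09 and never passed.

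Complex III, the cytochrome bc1 complex, had 1 of its 8 genes chosen here that passed at any time. The symbol rule leaves out another subunit, cytochrome c1 (Cyc1), which was higher at 1 day (0.45, adjusted p = 5e-05). Uqcrq, a small subunit, had 2715, 2853, 2896, 2584 and 2650 in crushed ONHs at 1 day, against 2079, 1895, 1786, 1800 and 1959 in contralateral ONHs, with no overlap (0.53 ± 0.10, adjusted p = 0.00017). It was also higher at 3 days (0.28, adjusted p = 0.034), a call that was lost under both other scalings and without pair 1 (0.17), pair 2 (0.27) or pair 5 (0.26). The catalytic Rieske protein Uqcrfs1 gave 0.00 at 1 day and 0.12 at 1 week (adjusted p = 0.078), the core protein Uqcrc1 gave 0.21 (adjusted p = 0.1) and -0.20 (adjusted p = 0.13) at these times, and Uqcrb and Uqcrh also passed at no time. The median of the 8 genes was 0.092, 0.094, -0.029 and -0.049 from 1 day to 3 weeks.

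**Figure D2:**
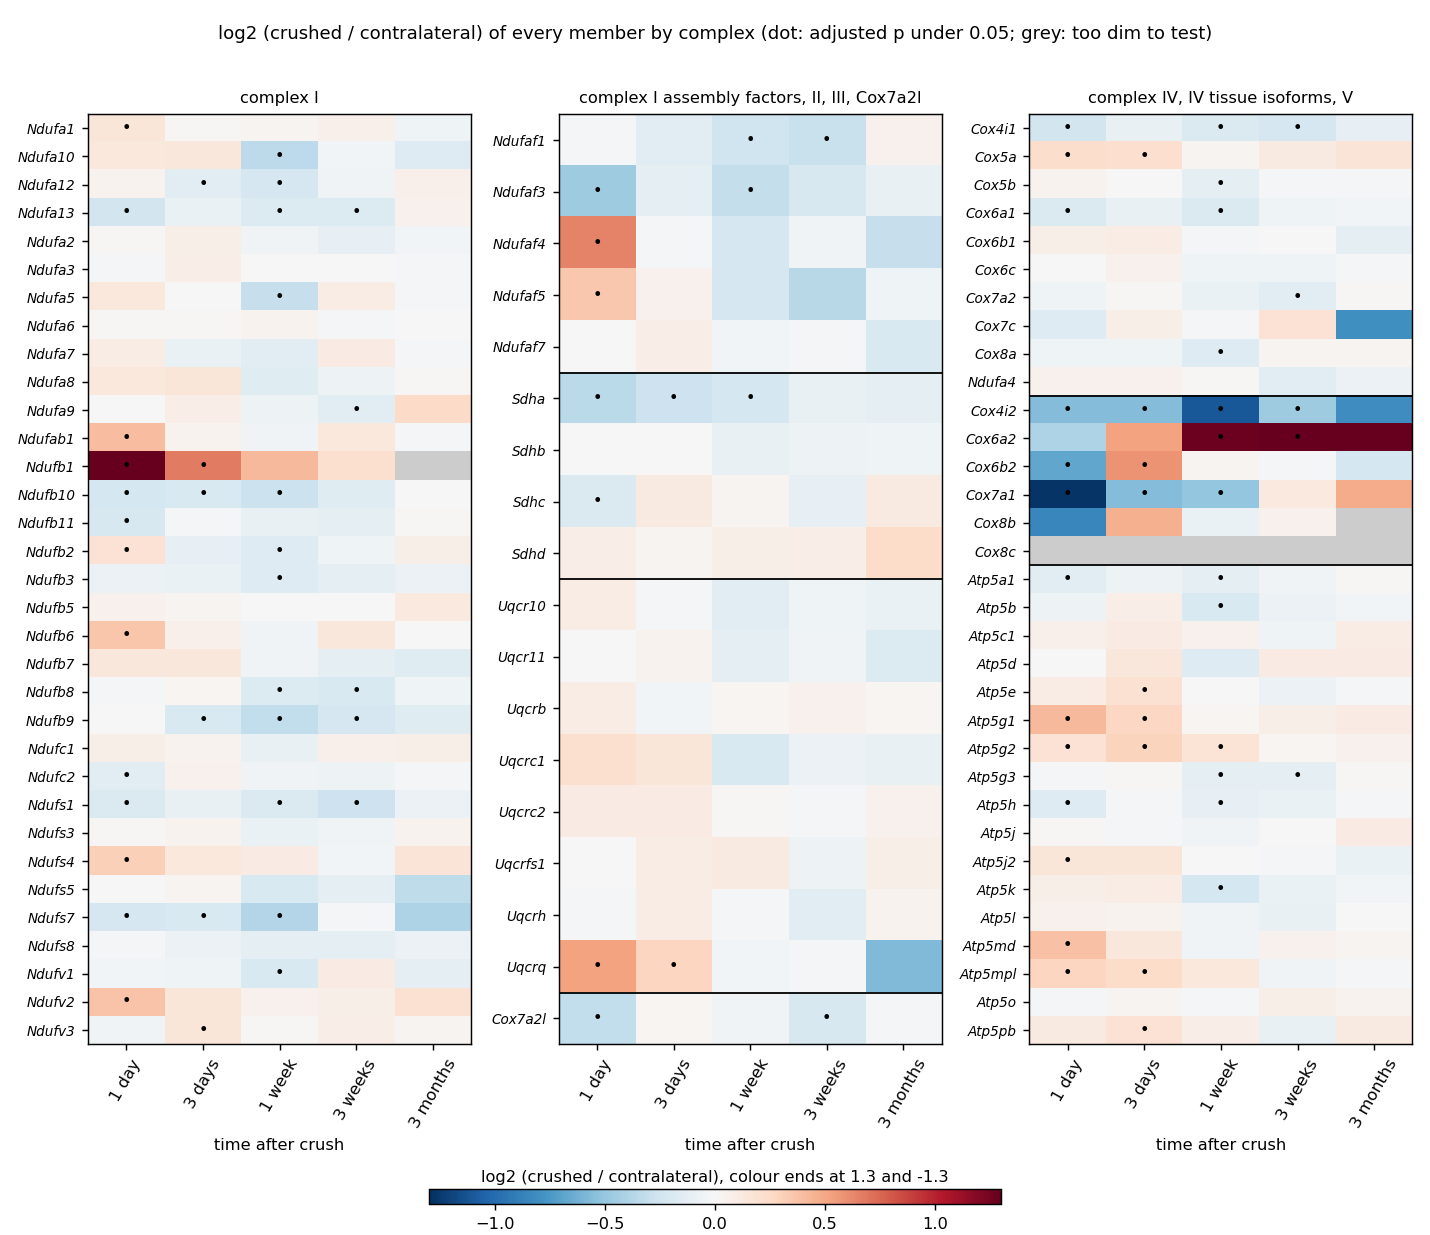
Log2 fold change, crushed over contralateral ONH, of all 83 tested genes and of Cox8c (rows, by complex) at the 5 times (columns), with red for higher and blue for lower in crushed ONHs. A dot marks an adjusted p under 0.05 and grey a gene too dim to test. The 26 lower genes of 1 week lie in complexes I, II, IV and V, the tissue isoforms and the assembly factors, and complex III has none.

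The ubiquitous subunits of complex IV, cytochrome c oxidase, showed 1 of 10 higher and 2 lower at 1 day, 1 higher and none lower at 3 days, 4 lower at 1 week and 2 lower at 3 weeks. Cox4i1, the common form of the largest nuclear subunit, had 7530, 6611, 7385, 7504 and 7543 in crushed ONHs at 1 day, against 8729, 8717, 8344, 8629 and 8606 in contralateral ONHs. It was lower without overlap at 1 day (-0.24 ± 0.04, adjusted p = 7.2e-05), 1 week (-0.19, adjusted p = 0.0011) and 3 weeks (-0.22, adjusted p = 0.00082), and gave -0.10 at 3 days (adjusted p = 0.061). Cox5a, which lies beside it on the matrix side, moved the other way, with 0.23 at 1 day (adjusted p = 0.0011) and 0.22 at 3 days (adjusted p = 0.0028). At 3 days its other 2 probe sets gave 0.11 (adjusted p = 0.17) and 0.09 (adjusted p = 0.37), and the brightest gave 0.08 and did not pass with a common median. Cox6a1 was lower at 1 day and 1 week (-0.19 at both), Cox8a and Cox5b at 1 week (-0.17 and -0.12) and Cox7a2 at 3 weeks (-0.14). With quantile normalization Cox7a2 (-0.06) and Cox5b (-0.09) did not pass, and Cox5b passed only without pair 5 when a pair was left out. Cox6b1, Cox6c, Cox7c and Ndufa4, which was long counted to complex I, passed at no time. The probe set used for Cox7c was dim, with a mean intensity of 192.9. Cox7a2l, a relative of the subunit 7a genes that helps complexes III and IV form supercomplexes, had 5982, 5984, 6388, 6415 and 6192 in crushed ONHs at 1 day, against 7624, 8150, 7839, 7274 and 7883 in contralateral ONHs. These did not overlap (-0.32 ± 0.04, adjusted p = 1.5e-06), nor did those of 3 weeks (-0.21, adjusted p = 0.0011).

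Apart from Ndufb1, the genes that passed with at least 2-fold changes were subunits of complex IV that replace a ubiquitous partner in particular tissues. Cox7a1 is the heart and skeletal muscle form of subunit 7a and lies at chr7:30184171-30186030. At 1 day it read 595.3, 319.5, 482.9, 481.7 and 654.8 in crushed ONHs, against 1370, 1088, 1090, 1194 and 1254 in contralateral ONHs. The highest crushed value was well below the lowest contralateral value, and Cox7a1 was 2.43-fold lower (log2 -1.28 ± 0.16, adjusted p = 1.7e-06). It was also lower at 3 days (-0.57, adjusted p = 0.0093) and 1 week (-0.51, adjusted p = 0.018), and gave 0.13 at 3 weeks (adjusted p = 0.64). It did not pass at 3 days without pair 2 (-0.42) or at 1 week without pair 3 (-0.41) or pair 5 (-0.43). Its ubiquitous partner Cox7a2 gave -0.05, 0.01, -0.09 and -0.14 at these times, and only the last passed.

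Cox4i2, the isoform of subunit 4 that is known from lung and oxygen sensing, was lower at every time from 1 day to 3 weeks. At 1 week it read 237.1, 246.7, 185.7, 212.2 and 216.4 in crushed ONHs, against 532.8, 461.2, 542.8, 411.5 and 411.7 in contralateral ONHs. No crushed array came near the contralateral range, and Cox4i2 was 2.14-fold lower (log2 -1.10 ± 0.14, adjusted p = 3.6e-06; -0.99 without pair 3). At 1 day it was -0.57 (adjusted p = 0.0019), at 3 days -0.56 (adjusted p = 0.0034) and at 3 weeks -0.46 (adjusted p = 0.022), the last not passing without pair 1, 2 or 4. The gene (chr2:152753916-152765039) shares 6308 bases of its annotated span with Bcl2l1, an anti-apoptotic gene, whose strand relative to it was not examined. The brightest probe set of Bcl2l1 gave 0.07, -0.08, -0.49 (adjusted p = 1.3e-06) and -0.12 from 1 day to 3 weeks, and its next 2 gave -1.03 and -0.93 at 1 week, and -0.48 (adjusted p = 0.017) and -0.59 (adjusted p = 0.023) at 3 weeks. Those 2 probe sets of Bcl2l1 gave 0.19 and 0.15 at 1 day, and -0.26 ± 0.14 and -0.32 ± 0.18 (SE) at 3 days. None of the 3 passed at these times. The part of Bcl2l1 transcripts in the Cox4i2 values was not tested.

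**Figure D3:**
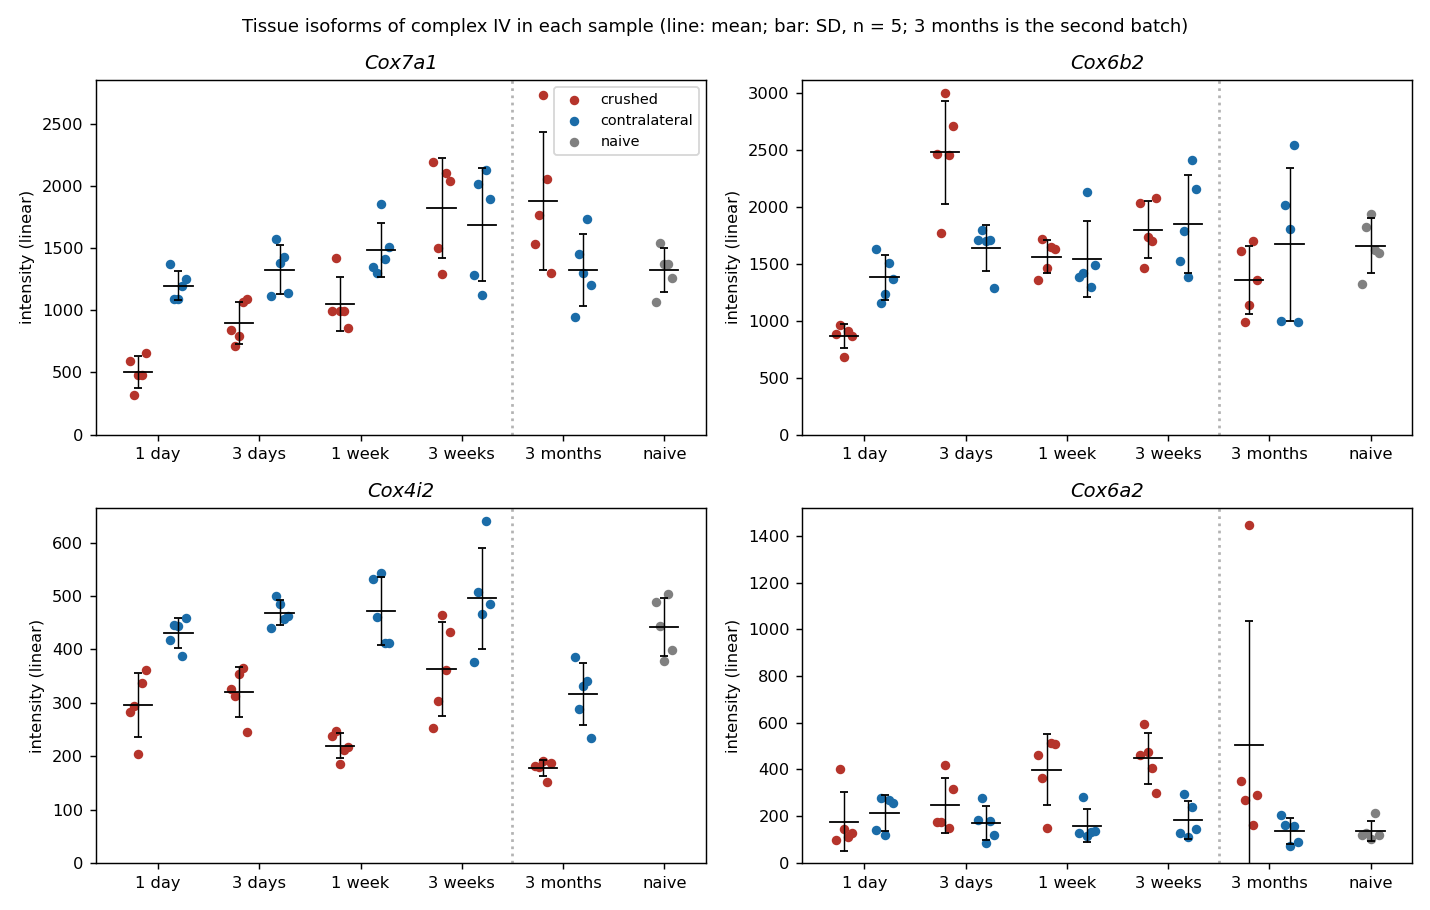
Intensity of Cox7a1, Cox6b2, Cox4i2 and Cox6a2 (y axis, linear scale) in crushed (red) and contralateral (blue) ONHs at each time and in naïve ONHs (grey); points are arrays, and bars are the mean ± SD of 5. The crushed arrays lie below all contralateral arrays for Cox7a1 at 1 day and for Cox4i2 at 1 week, and the 3 months lie right of the dotted line as a second batch.

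Cox4i2 is known as a transcript of pericytes, so the 14 markers of pericytes and smooth muscle are given beside these results. At 1 day 8 of the 14 were lower and none higher, with sums of 17530 to 26170 in crushed ONHs against 36910 to 43100 in contralateral ONHs. Of these markers, Rgs5 gave -0.96 and Higd1b -2.38. At 3 days 4 were higher and 1 lower (29300 to 41090 in crushed against 31530 to 37210 in contralateral ONHs), and at 1 week 2 were higher and 2 lower (33110 to 42780 in crushed against 33390 to 40990 in contralateral ONHs). Both Cox4i2 (-0.57) and Cox7a1 (-1.28) were lower at 1 day, when the sums were apart. Both were also lower at 3 days (-0.56 and -0.57) and at 1 week (-1.1 and -0.51), when the sums overlapped. At 3 weeks the sums were 29100, 27150, 33200, 27760 and 24220 in crushed ONHs, against 29640 to 33690 in contralateral ONHs. Only the crushed array of pair 3 lay within the contralateral range. Cox4i2 was lower at that time (-0.46), and Cox7a1 did not pass. The part of these cells in either result was not tested.

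Cox6a2, the heart and skeletal muscle form of subunit 6a, was the only tissue isoform that passed as higher at 1 week and at 3 weeks. At 1 week it read 460.9, 361.5, 149.3, 511.5 and 509.8 in crushed ONHs, against 129.2, 282.7, 114.9, 133.7 and 138.7 in contralateral ONHs. The crushed array of pair 3 lay among the contralateral values and the contralateral array of pair 2 stood above its group, but each crushed array was above the contralateral array of the same number (2.42-fold, log2 1.28 ± 0.36, adjusted p = 0.0079). At 3 weeks it read 461.9, 594.8, 474.6, 405.7 and 299.2 in crushed ONHs, against 125.9, 295.7, 111, 237.8 and 144.2 in contralateral ONHs. The lowest crushed value only just exceeded the highest contralateral value, and the fold was 2.57 (log2 1.36 ± 0.36, adjusted p = 0.01; 1.18 and no longer passing without pair 3). At 1 day it gave -0.40 (adjusted p = 0.37) and at 3 days 0.53 (adjusted p = 0.27). Its ubiquitous partner Cox6a1 gave -0.19 at 1 week and -0.06 at 3 weeks.

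Of 13 skeletal muscle markers bright enough to test, 1 was higher and 2 lower at 1 week, and 1 was higher and none lower at 3 weeks. The summed intensity over all 19 on the array was 1373 to 2221 in crushed ONHs and 2558 to 3662 in contralateral ONHs at 1 week. Their mean log2 intensity overlapped, at 5.60 to 5.74 in crushed ONHs and 5.60 to 6.34 in contralateral ONHs. At 3 weeks the sums also overlapped, at 2357 to 11670 in crushed ONHs and 2709 to 18180 in contralateral ONHs. Mylpf, a fast muscle myosin light chain, read 37.01 to 64.85 in crushed and 51.22 to 200.8 in contralateral ONHs at 1 week. Its value of 200.8 was in pair 3, with Cox6a2 at 114.9. At 3 weeks Mylpf was high on the crushed arrays of pair 2 (1175, Cox6a2 594.8) and pair 5 (2004, Cox6a2 299.2). It was also high on the contralateral array of pair 2 (3063, Cox6a2 295.7). At 3 months it was high on the crushed array of pair 3 (8961, Cox6a2 1445) and the contralateral array of pair 1 (1224, Cox6a2 205.8). Cox6a2 (chr7:128205435-128206366) shares 70 annotated bases with Itgad, an integrin gene of leukocytes, which no probe set on this array names. Of the 13 microglia and macrophage markers 11 were higher at 1 week and 10 at 3 weeks. The part of muscle tissue, of Itgad transcripts or of leukocytes in the Cox6a2 values was not tested.

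Cox6b2, a testis form of subunit 6b, was lower at 1 day and higher at 3 days. At 1 day it read 885.8, 957.6, 682.4, 912.8 and 868.3 in crushed ONHs, against 1632, 1151, 1235, 1504 and 1368 in contralateral ONHs, with no overlap (-0.68 ± 0.15, adjusted p = 0.00069). At 3 days it read 2461, 1772, 2997, 2454 and 2704 in crushed ONHs, against 1706, 1794, 1695, 1706 and 1286 in contralateral ONHs, and was higher in 4 of 5 pairs (0.59 ± 0.15, adjusted p = 0.0037). At 1 week and 3 weeks it gave 0.04 and -0.02. The ubiquitous partner Cox6b1 gave 0.08, 0.10, -0.03 and 0.00 and never passed. Cox8b, a muscle form with a mean intensity of 59.51, gave -0.85 at 1 day (adjusted p = 0.084) and passed at no time. Its highest reading, 548.3, was on the crushed array of pair 3 at 1 week.

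**Figure D4:**
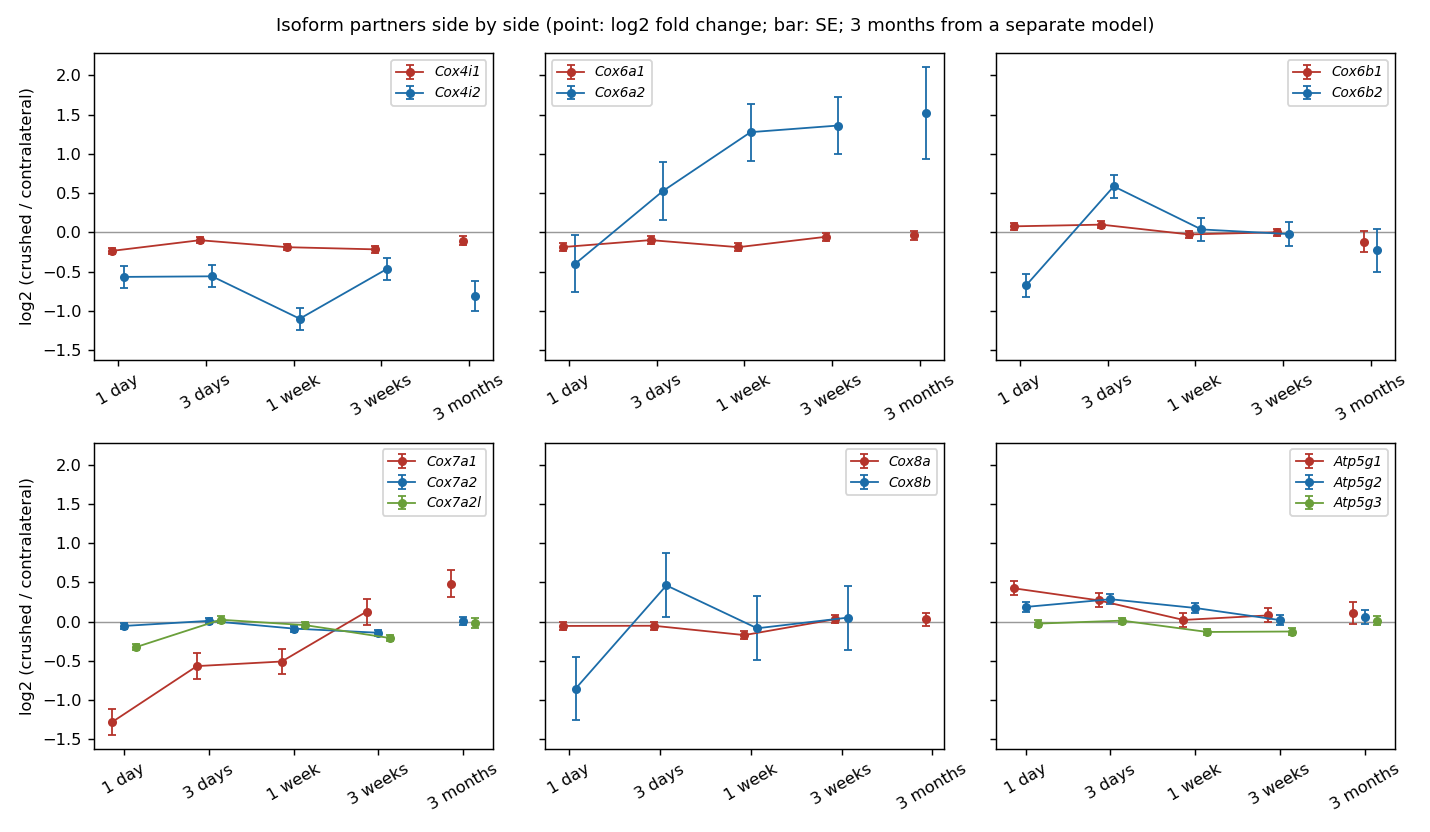
Log2 fold change, crushed over contralateral ONH (y axis), of each tissue isoform and its ubiquitous partner, and of the 3 genes of the c subunit of complex V, over time (x axis); points are the fitted values and bars their SE. Over 1 day to 3 weeks Cox4i2 lies between -1.10 and -0.46 and its partner Cox4i1 between -0.24 and -0.10, and Cox7a1 lies at -1.28 at 1 day where Cox7a2 lies at -0.05.

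Complex V, the ATP synthase, had 5 of 17 genes higher and 2 lower at 1 day, 5 higher and none lower at 3 days, 1 higher and 5 lower at 1 week, and none higher and 1 lower at 3 weeks. Over all probe sets tested at 1 day, 25.8% were higher and 28% lower. Of 5 genes of the catalytic F1 head none was higher at 1 day. In the head Atp5a1 was lower (-0.15, adjusted p = 0.0081, but -0.07 and not passing with quantile normalization). Of 12 genes of the Fo membrane part and stalk 5 were higher and Atp5h was lower (-0.17, adjusted p = 0.0013). These parts are small, and the difference between them was not tested. Atp5b, the catalytic beta subunit, was lower at 1 week only (-0.20, adjusted p = 0.001).

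The proton-carrying c subunit is encoded by 3 genes that yield the same mature protein. Atp5g1 had 5043, 4922, 4895, 4894 and 5018 in crushed ONHs at 1 day, against 4056, 3705, 3548, 3506 and 3653 in contralateral ONHs. The groups were well apart (0.43 ± 0.09, adjusted p = 0.00043), and Atp5g1 was also higher at 3 days (0.27, adjusted p = 0.02), a call lost without pair 1 (0.20) or 5 (0.22) and with either other scaling (0.22 and 0.13). Atp5g2 was higher at 1 day (0.19, adjusted p = 0.016), 3 days (0.29, adjusted p = 0.0011) and 1 week (0.17, adjusted p = 0.032). Of these, the call at 1 day was lost without pair 3 (0.16) or 4 (0.17), and that at 1 week without pair 1, 4 or 5 (0.13 to 0.17) and with a common median (0.11). Atp5g3 gave -0.02 and 0.01 at 1 and 3 days and was lower at 1 week (-0.13, adjusted p = 0.012) and 3 weeks (-0.12, adjusted p = 0.028). Its call at 1 week was lost without pair 3 (-0.10), that at 3 weeks without pair 2, 4 or 5 (-0.13 to -0.10), and both with quantile normalization (-0.08). Among the other membrane subunits Atp5md (0.38, adjusted p = 0.00017), Atp5mpl (0.27) and Atp5j2 (0.16) were higher at 1 day, Atp5pb, the stalk subunit b, was higher at 3 days (0.19, adjusted p = 0.011), and Atp5k was lower at 1 week (-0.23, adjusted p = 0.0021). Atp5mpl did not pass without pair 3 or 4 (0.25), and Atp5j2 not without pair 1, 3, 4 or 5 (0.13 to 0.18). Atp5pb did not pass without pair 1 (0.15) or with either other scaling (0.15 and 0.05), and its second, equally bright probe set gave 0.07 (adjusted p = 0.31). Atp5d, a subunit of the central stalk, passed at no time.

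Of the 84 genes, 45 had more than 1 probe set. Where the brightest probe set passed, other probe sets of the gene with a mean intensity of at least 500 had the same sign in 22 of 23 cases at 1 day, 8 of 8 at 3 days, 19 of 19 at 1 week and 4 of 4 at 3 weeks. Those that also passed were 19, 1, 10 and 3 of them. In 2 cases a dimmer probe set passed in the opposite direction: Ndufs4 at 1 day (0.31 and 0.34 against -0.46) and Uqcrq at 3 days (0.28 against -0.61, at a mean intensity of 65.77). Of the 84 genes, 27 overlap the annotated span of another gene.

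The effect of the crush differed between times for few of the genes. From 1 day to 3 days 5 effects moved up and 5 down (10.9% and 4.09% of all probe sets). Those that moved up were Cox6b2 (1.26), Cox7a1 (0.71), Cox7a2l (0.35), Sdhc (0.30) and Ndufc2 (0.20), and those that moved down were Ndufb1 (-1.10), Ndufaf4 (-0.67), Ndufab1 (-0.36), Ndufb2 (-0.29) and Ndufb6 (-0.29). From 3 days to 1 week none moved up and 4 moved down (2.98% and 6.83%): Ndufa10 (-0.48), Atp5k (-0.32), Atp5d (-0.31) and Atp5b (-0.29). From 1 week to 3 weeks Cox4i2 (0.64), Ndufs7 (0.36) and Ndufv1 (0.31) moved up and none moved down (5.95% and 9.25%). Between 1 day and 3 weeks 4 moved up and 12 down (18.4% and 18.8%), the 4 being Cox6a2 (1.76), Cox7a1 (1.41), Cox6b2 (0.65) and Sdha (0.26).

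At 3 months no gene passed. Cox4i2 read 181, 179.2, 190.7, 151.8 and 187.6 in crushed ONHs, against 385.8, 288.2, 332.4, 340.4 and 233.7 in contralateral ONHs, without overlap (log2 -0.81 ± 0.19, adjusted p = 0.14). Cox6a2 read 349.9, 269.4, 1445, 164.1 and 292.1 in crushed ONHs, against 205.8, 161.2, 72.39, 160.1 and 88.22 in contralateral ONHs (1.52 ± 0.59, adjusted p = 0.32), and gave 0.82 without pair 3. Uqcrq read 1062, 894.7, 1093, 1158 and 918.9 in crushed ONHs, against 2023, 1821, 1553, 1776 and 789.3 in contralateral ONHs (-0.57 ± 0.20, adjusted p = 0.29). The contralateral array of pair 5 lay below all crushed arrays, and the other 4 contralateral arrays lay above them. Cox7a1 gave 0.48 (adjusted p = 0.29) and Cox7c -0.80 (adjusted p = 0.46), with Cox7c at -0.42 without pair 2 and -0.45 without pair 3. In a model of all 50 crushed and contralateral arrays, which lends the 3-month pairs the spread of the first batch, Cox4i2 (adjusted p = 0.00072), Cox6a2 (adjusted p = 0.026) and Uqcrq (adjusted p = 0.0048) passed. So did Sdhd (log2 0.24), Ndufa9 (log2 0.25), Ndufs5 (log2 -0.33) and Ndufs7 (log2 -0.40). In the 3-month model alone Ndufs7 lay between -0.66 without pair 5 and -0.25 without pair 2. The share of all probe sets that passed in the model of 50 arrays was not computed. These calls are therefore not read as a result about these genes.

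Contralateral ONHs were also set against naïve ONHs, to ask whether the unoperated side kept its resting levels. No gene passed at 1 day or 3 days (all probe sets 0.0161% higher and 0% lower, and 0% and 0%) or at 1 week (0.3% and 0.246%), although 25 genes at 1 week were higher at an unadjusted p under 0.05 by limma (30.1%, against 14.4% of all probe sets in either direction), and none lower. At 1 day the unadjusted counts were 0 and 2 (6.79% of all probe sets), and at 3 days 0 and 1 (5.55%). After quantile normalization 21 genes were higher in contralateral than in naïve ONHs at 3 weeks and 0 lower, and with a common median 0 were lower. The shares of all probe sets under these scalings were not computed for this comparison. As deposited, 10 genes were higher at 3 weeks and 1 was lower (4.22% and 5.92% of all probe sets). Of the 10, 9 belong to complex I: Ndufb1 (0.71), Ndufb6 (0.28), Ndufa1 (0.27), Ndufa6 (0.27), Ndufb2 (0.26), Ndufab1 (0.22), Ndufc1 (0.20), Ndufa2 (0.19) and Ndufb9 (0.18). Ndufb2 averaged 4147 ± 305 in contralateral and 3469 ± 264 in naïve ONHs (SD, n = 5 each, adjusted p = 0.0082). Atp5md was the other gene that was higher (0.25), and Sdha was lower (-0.12, adjusted p = 0.048). The count rested on single arrays: 3 genes were higher without contralateral replicate 4, 4 without naïve replicate 4, 5 without contralateral replicate 2, 6 without contralateral replicate 5 or naïve replicate 1, and 17 without contralateral replicate 1. The comparisons of crushed with contralateral ONHs from 1 day to 3 weeks share the contralateral arrays of this comparison. At 1 week the mean log2 intensity over 70 bright subunits averaged 12.357 in crushed and 12.441 in contralateral ONHs, beside 12.351 in naïve ONHs. At 3 weeks it averaged 12.375 in crushed and 12.416 in contralateral ONHs. Crushed ONHs were not tested against naïve ONHs.

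Other genes of the mitochondrion are given for comparison. Of 72 genes of the mitochondrial ribosome, which translates the subunits encoded in mitochondrial DNA, 57 were higher and none lower at 1 day, with a median of 0.40, and 33 were higher and none lower at 3 days (median 0.23). At 1 week 3 were higher and 7 lower. Mrpl12 (1.04, adjusted p = 1.9e-06) and Mrps22 (1.02, adjusted p = 1.9e-07) were higher by 2-fold at 1 day. Of 24 genes of protein import and of carriers, 18 were higher and 1 lower at 1 day (median 0.25), and 7 and 0 at 3 days. Of 29 assembly factors outside the names above, 13 were higher and 4 lower at 1 day (median 0.19); Sco2, a copper chaperone of complex IV, gave 0.71 (adjusted p = 1.1e-05). The mobile carrier cytochrome c, Cycs (0.59 ± 0.08, adjusted p = 1.5e-06), and cytochrome c1, Cyc1 (0.45 ± 0.08, adjusted p = 5e-05), were also higher at 1 day. The lists differ in brightness and length, and the difference between them was not tested.

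**Figure D5:**
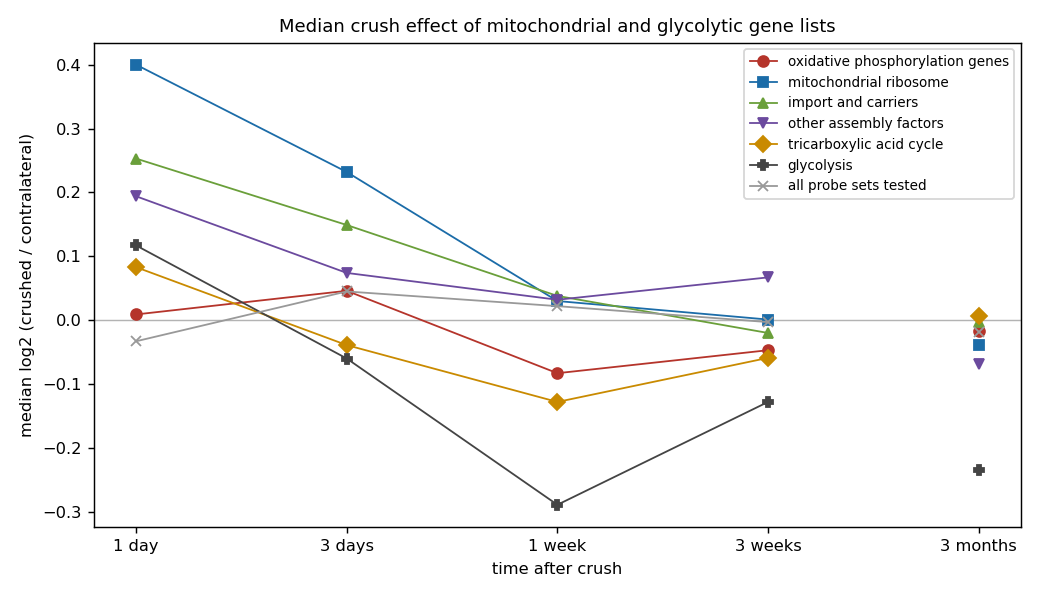
Median log2 fold change, crushed over contralateral ONH (y axis), of each gene list and of all probe sets tested, at each time after the crush (x axis). At 1 day the oxidative phosphorylation genes are at 0.009 and the mitochondrial ribosome at 0.400, and glycolysis is lowest at 1 week (-0.289).

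Genes of the tricarboxylic acid cycle list and of glycolysis moved in both directions. Of 17 genes of the first list, 5 were higher and 5 lower at 1 day, and 1 was higher and 6 lower at 1 week. Idh2, the mitochondrial NADP-linked isocitrate dehydrogenase, gave -0.87 at 1 day (adjusted p = 1.2e-07). The list also holds enzymes that supply the cycle, and of these Pcx, pyruvate carboxylase, gave -1.44 at 1 day and -1.58 at 1 week. Of 20 glycolysis genes, 8 were higher and 5 lower at 1 day (median 0.12), and 1 was higher and 12 lower at 1 week (median -0.29). Pfkl gave -0.94 at 1 week (adjusted p = 4e-04), and Aldoc, which is also an astrocyte marker in the lists used, gave -1.56 at 1 day.

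The known regulators of mitochondrial biogenesis split as well, with 4 of 15 higher and 4 lower at 1 day. Ppargc1a, the coactivator PGC-1alpha, gave -1.95 ± 0.23 at 1 day (adjusted p = 5.3e-07) and -0.94 at 3 days, and Ppargc1b gave -1.01 and -1.05. Pprc1, the related coactivator, gave 1.20 at 1 day (adjusted p = 4.2e-06) and 0.54 at 3 days, and Myc gave 3.44 ± 0.25 at 1 day (adjusted p = 9.4e-10). Nrf1 itself, whose motif is printed above, gave -0.20 at 1 day (adjusted p = 0.23) and 0.52 at 1 week (adjusted p = 0.0038), and Tfam, the transcription factor of mitochondrial DNA, passed at no time. Of 13 hypoxia-inducible genes, 3 were higher and 5 lower at 1 day, and 1 was higher and 7 lower at 1 week. No link between these regulators and the subunits was tested.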

How the data were processed

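Oxidative phosphorylation genes were measured on 55 Affymetrix arrays, 5 per condition, each a separate pool of 2 ONHs from different mice. The deposited values are linear intensity values, 1 per probe set, which the authors made with DChip (invariant-set normalization within a batch, then the difference of perfect-match and mismatch probes). No further normalization was applied. Of 22690 probe sets, 64 controls were left out. In the platform annotation 20380 of the remaining 22626 probe sets name 1 gene, 691 several and 1555 none, and only the first kind could be a member. Intensities were floored at 20 and taken to log2, and a probe set was tested if at least 5 arrays of the model reached 50 (19313 for 1 day to 3 weeks, 18823 for 3 months, 18669 for contralateral against naïve). The precision is limited by the 5 arrays per condition, and array medians were 459 to 554 in the first batch and 494 to 598 in the second.

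Crushed ONHs were tested against contralateral ONHs by limma (version 3.58.1, R version 4.3.3, lmFit and eBayes with an intensity trend), with the pair as a block, 1 model for 1 day to 3 weeks (40 arrays) and 1 for 3 months. Contralateral and naïve ONHs were compared without pairing, and the crush effects of different times as contrasts. P-values were adjusted over all probe sets tested by the method of Benjamini and Hochberg. The study's methods use paired tests, with the left and right eyes of 2 mice as a pair. Arrays with the same replicate number were taken to be such pairs, which no label states; the mean correlation of same-numbered deviations was -0.02, -0.08, -0.04, 0.17 and -0.17 from 1 day to 3 months, against -0.04 to 0.04 for other numbers. The fit was tested on simulated data. Data were handled with the R package data.table (version 1.17.8), pandas 2.3.3 and matplotlib 3.10.9 in Python 3.11.15.

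The genes, their roles and the marker and pathway lists were chosen with earlier results of these data known. Named are genes that changed at least 2-fold, the lowest and highest of each role and time, isoform partners, catalytic subunits and genes whose probe sets disagree. Other genes are named where they passed the test. No test set the level of a probe set against that of another, and intensities across genes describe only how bright their probe sets were. Gene positions and promoter windows are from RefSeq (GRCm38.p6). Alternatives were 2 other scalings, other floors and filters, no block, no trend, a photoreceptor covariate, other probe sets, the 3 criteria of the study's methods, and leaving out each replicate.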

Additional observations from a re-analysis of the deposited data

Results flagged for a closer look

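Among 16 genes (the isoforms, their partners and the genes that passed with at least 2-fold changes) in 11 groups, 23 of 176 sets of 5 arrays had 1 array whose gap to its nearest neighbour exceeded 0.71 of the whole log2 range; chance gives about 1 in 20. For the tissue isoforms, Cox6a2 stood apart in crushed replicate 2 at 1 day (400.3, nearest 143.1), crushed replicate 3 at 1 week (149.3, nearest 361.5), contralateral replicate 2 at 1 week (282.7, nearest 138.7) and naïve replicate 4 (214.8, nearest 126.6). Cox6b2 stood apart in crushed replicate 3 at 1 day (682.4, nearest 868.3), contralateral replicate 5 at 3 days (1286, nearest 1695) and contralateral replicate 3 at 1 week (2129, nearest 1488). The others were Cox7a1 in crushed replicate 2 at 1 week (1425, nearest 994.3), Cox4i2 in crushed replicate 4 at 3 months (151.8, nearest 179.2) and the dim Cox8b in contralateral replicate 2 at 3 days (36.42, nearest 21.4).

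Among the ubiquitous genes, crushed replicate 2 at 1 day was low for Cox4i1 (6611, nearest 7385) and Cox6b1 (7739, nearest 8601), and Cox7a2l was low in crushed replicate 4 at 3 days (7480, nearest 7748). Contralateral replicate 5 at 3 months was low for Atp5g1 (2192, nearest 3151) and Cox6b1 (4961, nearest 8088) and high for Ndufb1 (66.54, nearest 47.01), and it is also the array with the lowest mean over 70 bright subunits. Contralateral values also stood apart for Cox6a1 (9222, nearest 10430) and Ndufa4 (7431, nearest 6529) at 3 days, for Cox8a at 1 day (4024, nearest 4281) and 1 week (4883, nearest 4401), and for Cox7a2 (10350, nearest 11000) and Cox7a2l (8820, nearest 8394) at 1 week. Cox4i1 was low in naïve replicate 4 (7550, nearest 8359).

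The crush effect of 23 gene and time pairs among the named genes differed between times by limma's contrast at an adjusted p under 0.05. As log2 differences, 3 days minus 1 day gave 1.26 for Cox6b2, 0.71 for Cox7a1, 0.35 for Cox7a2l, 0.30 for Sdhc, -0.67 for Ndufaf4 and -1.10 for Ndufb1. The step to 1 week from 3 days gave -0.29 for Atp5b, -0.31 for Atp5d and -0.32 for Atp5k. The step to 3 weeks from 1 week gave 0.64 for Cox4i2, 0.36 for Ndufs7 and 0.31 for Ndufv1. The difference of 3 weeks and 1 day gave 1.76 for Cox6a2, 1.41 for Cox7a1, 0.65 for Cox6b2, 0.26 for Sdha, -0.22 for Atp5pb, -0.34 for Ndufs4, -0.35 for Atp5g1, -0.54 for Uqcrq, -0.69 for Ndufaf4, -0.71 for Ndufaf5 and -1.57 for Ndufb1.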

How the results depend on the processing

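Of 214 alternative values of counts and medians that left out no replicate, 184 stayed close to the main value. When a replicate was left out, 148 of 180 did so. Close means a count within 1.5 times, or a median that moved by less than the SD of the pair medians (0.081 to 0.128). The sign of a median was not part of this rule. It changed, for example, at 3 days with quantile normalization (0.046 to -0.009) and at 3 months with both scalings (-0.017 to 0.031 and 0.038). Of 858 alternative values of named genes none reversed and 100 no longer passed. With quantile normalization, 3 genes were higher and 16 lower at 3 days (10 and 7 as deposited), 3 were higher at 3 weeks (1), and 21 were higher and 0 lower in contralateral than in naïve ONHs at 3 weeks (10 and 1). With a common median, 2 were higher and 28 lower at 3 days, with a median of -0.092 (0.046), 1 was higher and 41 lower at 1 week (2 and 26), 18 were lower at 3 weeks (11), and 0 were lower against naïve ONHs at 3 weeks. Of the contrasts, 3 days minus 1 day gave 2 effects that moved up under either scaling (5) and 11 that moved down with the common median (5). The step to 1 week gave 2 down under either (4), the step to 3 weeks 6 up by quantile and 8 by median (3), and 3 weeks minus 1 day 7 down by quantile and 19 by median (12). Without the replicate block for the pairing, 1 gene was lower at 3 months (0), no other count moved by over 1.5 times, and of the genes' calls from 1 day to 3 weeks only that of Ndufv3 at 3 days was lost. Without the intensity trend 1 was higher at 1 week (2) and 7 lower at 3 weeks (11). In 1 model of 50 arrays, 3 were higher and 4 lower at 3 months, 1 of them at least 2-fold. By the 3 criteria of the methods, which use the methods' t-test, 1 gene changed at least 2-fold at 1 day (2), and 0 at 1 week (2) and 3 weeks (1). For these alternatives, shares of all probe sets were computed only for crushed against contralateral ONHs under the other scalings. The other counts have no such share beside them.

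Leaving out each pair in turn gave 10 to 17 higher and 13 to 17 lower at 1 day, 3 to 12 and 3 to 7 at 3 days, 1 to 6 and 15 to 28 at 1 week, and 0 to 1 and 6 to 12 at 3 weeks. Changes of at least 2-fold numbered 1 to 2 at 1 week and 0 to 1 at 3 weeks. Medians were 0.000 to 0.038 at 1 day, 0.001 to 0.093 at 3 days, -0.105 to -0.037 at 1 week, -0.083 to -0.028 at 3 weeks and -0.063 to 0.011 at 3 months. Against naïve ONHs, 0 to 1 were higher at 1 week, and 3 to 17 were higher and 0 to 3 lower at 3 weeks. At 1 week pair 3 gave the extremes of 6 higher and 15 lower. Signal over background limits Ndufb1, Cox8b and Cox8c, which lie near the floor.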
